A study of Gallus gallus with 58 samples.

Results

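The difference between CpG-treated and control chicks that days 3 and 6 have in common was measured on 38 of the 58 arrays of the series. These are all arrays labelled D3 or D6, each made from the whole blood of 1 chick (Gallus gallus). The chicks were injected on the day of hatch with CpG-ODN 2007, a short DNA described in the labels as an agonist of chTLR21, the chicken counterpart of mammalian TLR9. The groups were CpG at D3 (8 chicks), control (CTL) at D3 (8), CpG at D6 (10) and CTL at D6 (12), and different chicks were bled on each day. The labels do not say what controls were given, nor do they name a breed, a sex or a hybridisation batch. The remaining 20 arrays, of chicks bled 3 h after the injection, are used below only for a comparison of late with early effects.

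CpG DNA is read by endosomal Toll-like receptors of innate immune cells, which signal through NF-kB and interferon regulatory factors. The first path leads to inflammatory cytokines, and the second leads to type I interferon and, through it, to a broad set of antiviral genes. Chicken blood differs from that of mammals in its nucleated red cells, in its nucleated thrombocytes, which also act in immunity, and in its heterophils, which take the place of neutrophils.

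In each probe set the CpG effect was estimated as 1 term, CpG minus CTL, in a limma model that lets the 2 days have different levels. It is given below as a log2 difference ± SE, so that a value of 1 is a 2-fold higher level, and a probe set was called when its p-value, adjusted by Benjamini-Hochberg over all 20804 probe sets, was under 0.05. The values are log2 RMA expression values. Levels of different genes are not compared, because probe sets differ in brightness.

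Over the 2 days together 1352 probe sets were called, or 6.5%. Of these, 807 were higher in CpG chicks (3.88%) and 545 lower (2.62%). The rises were larger than the falls: the median size of a called difference was 0.394 among the higher and 0.280 among the lower probe sets. At least a 2-fold difference was reached by 24 of the higher and by 2 of the lower probe sets, those of SMOC1 and SIK1. With 1 probe set for each of 11528 named genes, 868 were called (7.53%), of which 592 rose (5.14%) and 276 fell (2.39%), while the median over all these genes was -0.02.

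The day-by-day values behind the shared term came from the same 38 arrays with 1 mean per group. That fit called 75 probe sets at D3 (0.361%), 63 higher (0.303%) and 12 lower (0.0577%). At D6 it called 453 (2.18%), 376 higher (1.81%) and 77 lower (0.37%), and 900 of the 1352 were called at neither day alone. The same arrays enter all these counts, and they are not independent. The median SE of the 1352 was 0.087 for the shared term, 0.135 at D3 and 0.115 at D6. Of the 1352, 1350 had the same sign on both days. A call by the shared term favours equal signs, so this count is no separate evidence that the days agree. A test of the change of the effect from D3 to D6 called 0 probe sets (0%, limma, smallest adjusted p = 0.895, 1066 at an unadjusted p under 0.05). The median SE of that change was 0.177. Changes several times that size also missed the adjustment, among them those of LECT2, DEFB4A and BPGM given below. The 0 calls therefore do not show that the effect was equal on both days.

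**Figure D1:**
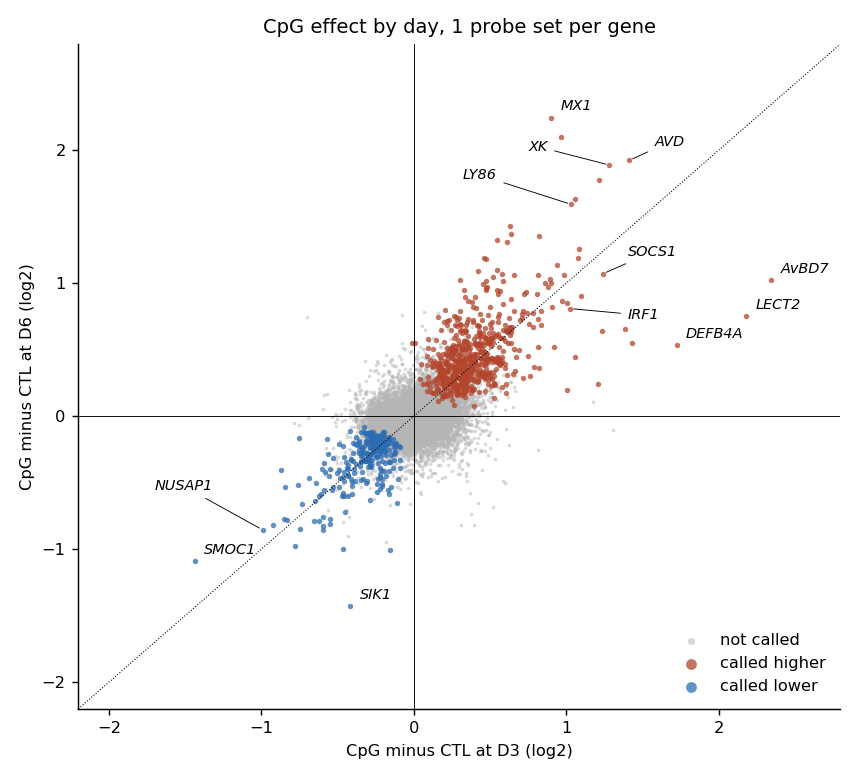
Each point is 1 of 11528 genes, placed by its CpG minus CTL difference (log2) at D3 (x axis) and at D6 (y axis); colours mark the 592 genes called higher and the 276 called lower by the shared term, and the dotted line is equality of both days. Called genes lie in the quadrants of equal sign, which a call by the shared term favours, apart from FAM46A (-0.01 at D3 and 0.55 at D6). AvBD7, LECT2 and DEFB4A lie to the right of the line and MX1 above it.

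Fixed markers of 6 blood cell types were measured. Of the fixed markers of erythrocytes, 5 were measured, and their means lay between percentiles 97.9 and 100 of all probe sets. B cell markers lay between percentiles 19.2 and 59.3 and T cell markers between 42.5 and 88.2. These percentiles describe the brightness of probe sets and do not rank the cell types. Markers of 3 cell types were called by the shared term: 7 of 9 heterophil markers, 4 of 5 monocyte markers and 4 of 7 thrombocyte markers rose. Of all genes 5.14% rose. Of erythrocyte markers 0 of 5 were called in either direction, of B cell markers 0 of 4 and of T cell markers 0 of 7. With 7.53% of all genes called, 0 calls in sets this small do not set these types apart. The heterophil score, a mean of z-scores over these markers, was 0.175 ± 0.435 (SD, n = 8) in CTL and 1.117 ± 0.584 (n = 8) in CpG chicks at D3, and -0.911 ± 0.276 (n = 12) against 0.060 ± 0.671 (n = 10) at D6. The monocyte score was 0.025 ± 0.502 against 0.464 ± 0.634 at D3 and -0.729 ± 0.430 against 0.483 ± 0.621 at D6. The erythrocyte score was -0.172 ± 0.512 against -0.383 ± 0.519 at D3 and 0.561 ± 0.225 against -0.230 ± 0.885 at D6. For B cells it was -0.144 ± 0.857 against -0.731 ± 0.626 at D3 and 0.382 ± 0.521 against 0.242 ± 0.599 at D6. For T cells it was -0.340 ± 1.051 against 0.027 ± 0.468 at D3 and -0.086 ± 0.310 against 0.354 ± 0.787 at D6. Differences between scores were not tested. In whole blood, fewer or more cells of a type and less or more RNA per cell cannot be told apart, and this holds for every difference below. With the scores of all 6 cell types as covariates 75 probe sets were called, 42 of them among the 1352. The markers themselves are adjusted for in that fit, and the part of the cell mix in each single result was not tested. The arrays of CpG chicks 20 (D3) and 31 (D6) and of CTL chicks 86 and 92 (D3) correlated least with their groups, and without them 2102 probe sets were called, 1258 of them among the 1352.

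Interferon-stimulated genes were the largest group of rises among the lists described. Of 36 measured, 29 rose (80.6%, against 5.14% of all genes), 0 fell and 7 did not pass. Their median was 0.65, against -0.02 over all genes. RSAD2, which encodes the antiviral enzyme viperin, lay in CTL chicks at 8.32, 9.58 and 10.16 (lowest, median and highest log2 value) and in CpG chicks at 9.62, 10.42 and 11.33 at D3. At D6 it lay at 9.10, 9.78 and 10.51 in CTL and at 10.28, 10.84 and 12.26 in CpG chicks. The groups overlapped on both days, with 5 of 8 and 7 of 10 CpG chicks above all controls, and the shared rise was 1.06 ± 0.17 (adjusted p = 0.000145), or 2.08-fold.

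MX1, a dynamin-like antiviral GTPase, rose by 1.68 ± 0.36 (adjusted p = 0.00253), the largest difference of the list. At D3 CTL chicks already spanned 7.12 to 10.75 (median 9.26), and CpG chicks spanned 7.57 to 11.19 (median 9.93), so that 1 of 8 stood above all controls. At D6 the controls lay at 6.04, 7.52 and 9.93 and the CpG chicks at 9.19, 10.11 and 10.92, with 6 of 10 above. DDX60, a helicase that aids RNA sensing, rose by 1.62 ± 0.39, and its second probe set by 1.91 (adjusted p = 0.00234).

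Enzymes of ADP-ribosylation and ubiquitin transfer were among the members that rose. DTX3L, a ubiquitin ligase, rose by 0.86 ± 0.13 (adjusted p = 3.57e-05), with differences of 0.90 at D3 and 0.82 at D6. Its partner PARP9 rose by 0.75 ± 0.14, and PARP14, a mono-ADP-ribosyltransferase, by 0.72 ± 0.11 (adjusted p = 6.05e-05). Sensors and effectors of viral RNA rose as well. IFIH1, the sensor MDA5, rose by 0.81 ± 0.14, and EIF2AK2, the kinase PKR that halts translation on double-stranded RNA, by 0.77 ± 0.14. ZC3HAV1, which directs viral RNA to decay, rose by 0.76 ± 0.16, and IFIT5, which binds foreign RNA ends, by 0.52 ± 0.14 (adjusted p = 0.0212). OASL, an oligoadenylate synthetase family member, rose by 0.63 ± 0.18, a call (adjusted p = 0.032) that ended without CpG chick 19, 27 or 28 (adjusted p up to 0.0533).

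Guanylate-binding and very large inducible GTPases belong to the same response, mainly that to interferon gamma in mammals. GBP4L rose by 0.89 ± 0.21 (adjusted p = 0.00546) although it was called at neither day alone, at 1.23 (adjusted p = 0.0668) and 0.64 (adjusted p = 0.246). In CTL chicks it lay at 10.42, 11.12 and 11.32 at D3, and CpG chicks lay at 10.56, 12.47 and 12.87, with 7 of 8 above all controls. GVINP1 rose by 0.73 ± 0.21, a call (adjusted p = 0.0315) that ended without CpG chick 19, 27 or 29 or CTL chick 87 (adjusted p up to 0.0548). The members that did not pass were LY6E (0.52 ± 0.18, adjusted p = 0.0828), TAP1 (0.26 ± 0.08, adjusted p = 0.0509), IFITM5, IFI30, TNFSF10, PML and XAF1. XAF1, an inhibitor of anti-apoptotic proteins, had the lowest value, at -0.15 ± 0.07.

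As the mean of its 36 genes relative to the same-day control mean, the interferon-stimulated list lay between -0.20 and 1.12 (median 0.56) in CpG chicks at D3, against -0.54 to 0.45 in controls. At D6 it lay between 0.25 and 1.19 (median 0.68), against -0.61 to 0.51. On this scale 4 of 8 CpG chicks at D3 and 7 of 10 at D6 stood above every control, CpG chick 14 was the lowest at D3 and CpG chick 31 the highest at D6. Without the 4 arrays that stood apart 26 members rose (median 0.52), and with any 1 array left out 25 to 31 did. With all 58 arrays in the fit 14 rose (median 0.64). With the cell scores as covariates 6 rose, while the median was 0.68.

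**Figure D2:**
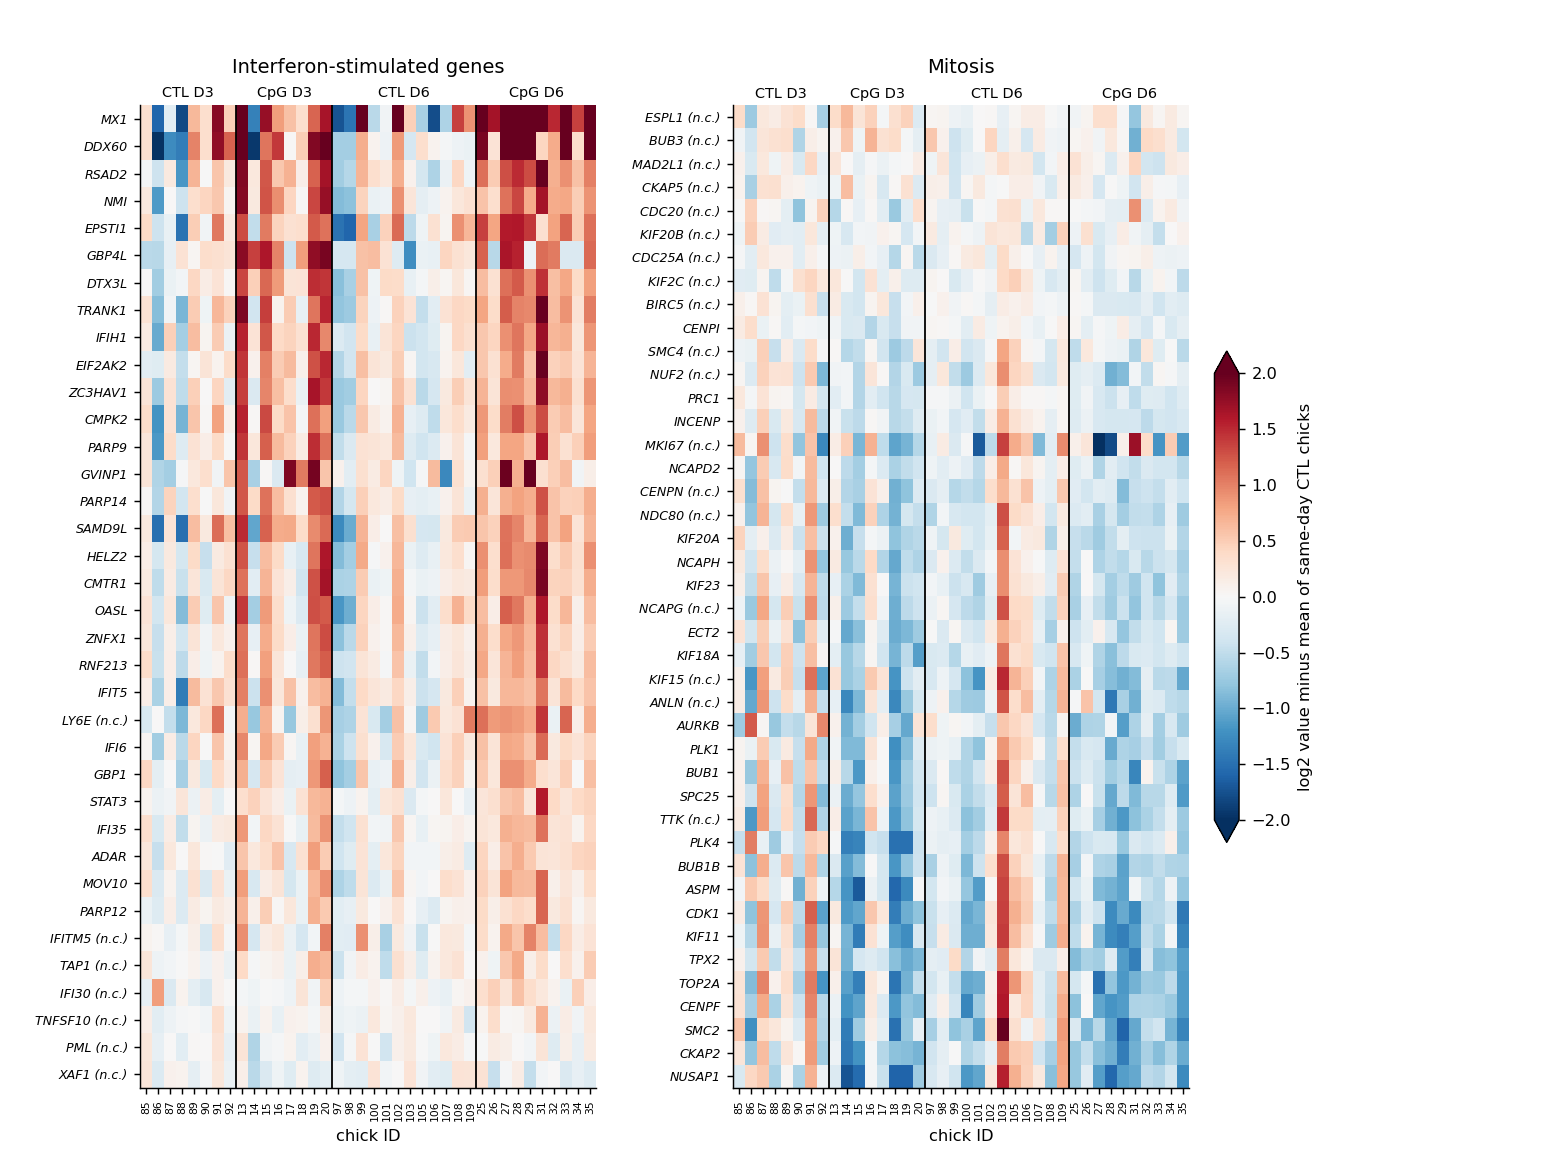
Each column is 1 chick and each row 1 gene of the interferon-stimulated list (left, 36 genes) or the mitosis list (right, 42 genes), coloured by its log2 value minus the mean of the same-day CTL chicks, with colours capped at 2 either way; n.c. marks genes that were not called. CpG chicks are mostly red on the left, least so chick 14, and mostly blue on the right, where CTL chick 103 at D6 is the reddest column.

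Of 18 genes for interferon receptors, their kinases and regulatory factors, 4 rose (22.2%) and 1 fell (5.56%), with a median of 0.07. Of all genes 5.14% rose and 2.39% fell. IRF1, a transcription factor that drives interferon-induced genes, lay at 10.52, 11.04 and 11.35 in CTL and at 11.29, 12.07 and 12.51 in CpG chicks at D3. At D6 it lay at 10.55, 11.08 and 11.73 in CTL and at 11.48, 11.87 and 12.53 in CpG chicks. All but the lowest CpG chick at D3 and the lowest 2 at D6 stood above every control, and IRF1 rose by 0.90 ± 0.11 (adjusted p = 9.8e-07), or 1.87-fold. IRF8, a factor of myeloid cell development, rose by 0.92 ± 0.15, and IRF7, the main inducer of type I interferon in birds and mammals, by 0.63 ± 0.11. IRF2, which competes with IRF1 for its sites, rose by 0.19 ± 0.05, and TYK2, a receptor-bound Janus kinase, fell by 0.18 ± 0.05. The call of TYK2 ended with median centring and without any of 11 arrays (adjusted p up to 0.0622). With the cell scores as covariates 1 of the 18 rose and 0 fell.

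**Figure D3:**
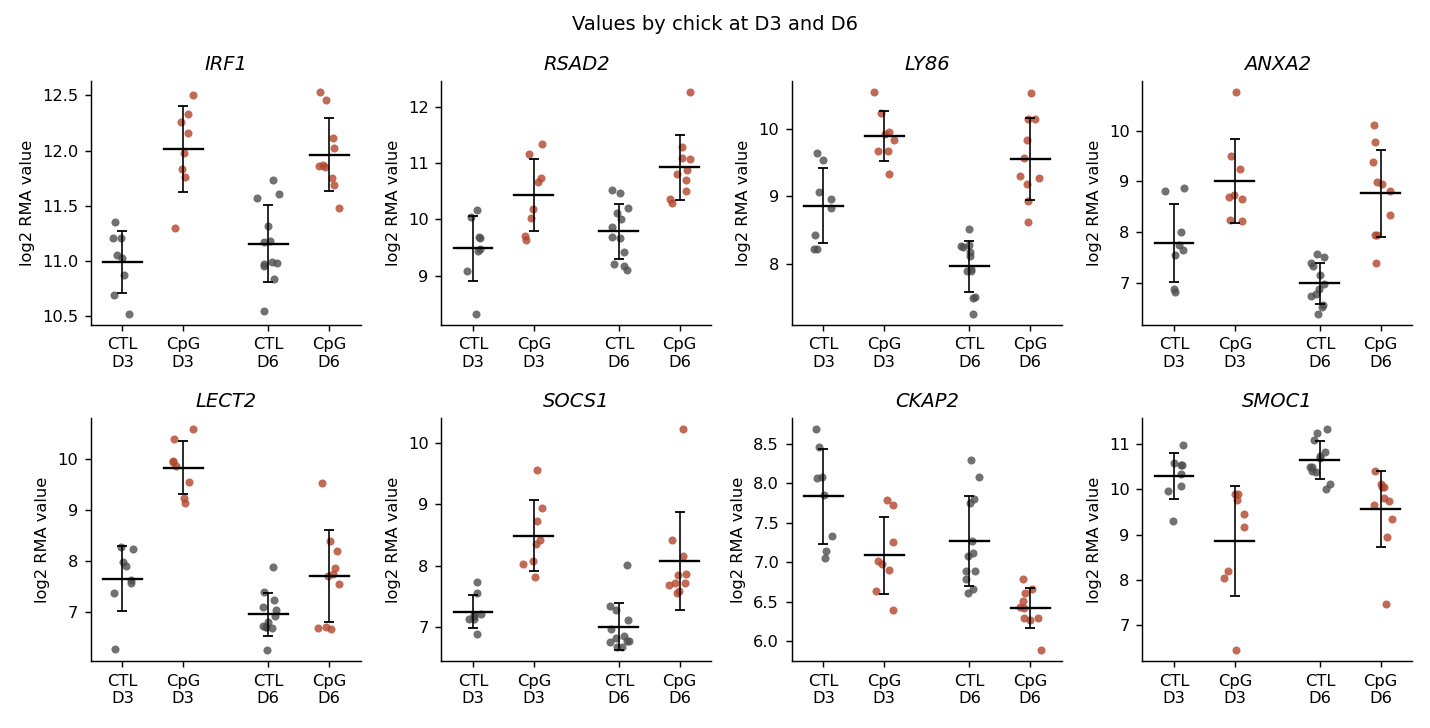
Each point is 1 chick's log2 RMA value in the CTL (grey) and CpG (red) groups at D3 and D6 (8, 8, 12 and 10 chicks), with the mean (bar) and SD (whiskers). IRF1, RSAD2, LY86, ANXA2, LECT2 and SOCS1 are higher in CpG chicks on both days and CKAP2 and SMOC1 lower, and the groups are apart for LECT2 and SOCS1 at D3 and for LY86 at D6.

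Toll-like receptors and the proteins that serve them rose in part. Of 14 measured, 7 rose (50%, against 5.14% of all genes) and 0 fell, with all 14 above 0 and a median of 0.51. LY86, also known as MD-1, is the partner of the TLR4-like surface protein RP105. It lay at 8.21, 8.89 and 9.64 in CTL and at 9.33, 9.88 and 10.55 in CpG chicks at D3, and at 7.26, 8.02 and 8.52 in CTL and 8.62, 9.44 and 10.54 in CpG chicks at D6. The ranges did not overlap at D6 and overlapped through 1 CpG chick at D3, and LY86 rose by 1.36 ± 0.16 (adjusted p = 7.62e-07). LY96, or MD-2, which binds lipopolysaccharide for TLR4, rose by 1.03 ± 0.15, and LBP, the plasma protein that delivers lipopolysaccharide, by 0.86 ± 0.13. TLR4 itself rose by 0.51 ± 0.11. TLR7, an endosomal receptor for single-stranded RNA, rose by 0.83 ± 0.13, with 6 of 8 and 10 of 10 CpG chicks above all controls.

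Receptors of bacterial lipopeptides made up the rest. TLR1B rose by 0.74 ± 0.17 and was called at neither day alone (0.71, adjusted p = 0.213, and 0.77, adjusted p = 0.0699), and TLR2A rose by 0.50 ± 0.12. Both have near-identical copies in the chicken, and the probes may not tell the copies apart. TLR3, the receptor for double-stranded RNA, missed the threshold at 0.55 ± 0.22 (adjusted p = 0.127). Downstream, 3 of 19 adaptors and kinases rose (15.8%, against 5.14% of all genes) and 0 fell. The 3 were TOLLIP (0.21 ± 0.06), NFKB1 (0.25 ± 0.07) and MAP3K8 (0.29 ± 0.08). LY86 and TLR4 are also monocyte markers, and with the cell scores as covariates 1 of the 14 receptor genes rose (median 0.03).

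Antigen presentation genes rose in part. Of 9 genes for MHC class I and peptide loading, 4 rose (44.4%, against 5.14% of all genes) and 0 fell. All 9 were above 0, with a median of 0.34. TAP2, a subunit of the peptide transporter, rose by 0.62 ± 0.09 (adjusted p = 4.39e-05), with differences of 0.63 at D3 and 0.61 at D6. B2M, the light chain of class I molecules, rose by 0.36 ± 0.06, PDIA3, a chaperone of loading, by 0.22 ± 0.06, and TAPBPL, a peptide editor, by 0.34 ± 0.10, a call that 20 of the 38 arrays ended when left out (adjusted p up to 0.0753). Of 14 genes for class II and lysosomal proteases, 4 rose (28.6%) and 0 fell. CTSC, a protease that activates granule enzymes, rose by 0.97 ± 0.14 (adjusted p = 3.05e-05), CTSS, which trims the invariant chain, by 0.52 ± 0.12, CD74, the invariant chain itself, by 0.63 ± 0.16, and CTSZ by 0.26 ± 0.08, a call that 13 arrays ended (adjusted p up to 0.0660). With the cell scores as covariates 3 of the 9 class I genes (median 0.47) and 0 of the 14 class II genes (median 0.01) were called.

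Cytokine genes were called in both directions: of 25 measured 4 rose (16%) and 2 fell (8%), with a median of 0.00. Of all genes 5.14% rose and 2.39% fell. IL15, a growth factor of natural killer and memory T cells, lay at 6.25, 6.66 and 7.81 in CTL and at 6.45, 8.17 and 8.75 in CpG chicks at D3. At D6 it lay at 6.01, 6.74 and 8.27 in CTL and at 5.67, 8.14 and 9.73 in CpG chicks. The ranges overlapped widely, with the lowest D6 value in a CpG chick, and IL15 rose by 1.19 ± 0.24 (adjusted p = 0.00158). IL18, which drives interferon gamma release, rose by 0.63 ± 0.11, TNFSF13B, the B cell survival factor BAFF, by 0.37 ± 0.08, and IL16 by 0.32 ± 0.08. IL1B, an early inflammatory cytokine, fell by 0.21 ± 0.06 (adjusted p = 0.0376), a call that 15 of the 38 arrays ended when left out (adjusted p up to 0.0686), and IL4 fell by 0.21 ± 0.06. IL6 (-0.08 ± 0.07), IFNG (0.00 ± 0.08), NOS2 (-0.10 ± 0.09), NFKBIA (0.08 ± 0.12), LITAF (0.00 ± 0.08), and the chemokines IL8L1 (0.04 ± 0.06) and IL8L2 (0.07 ± 0.09) did not pass. IL6, IFNG, IL8L1 and IL8L2 had low values, up to 5.67 in any of these chicks, at which their detection is not known. Most of the list was dim: without the dimmest 40% of probe sets 6 of the 25 remained, of which 2 rose and 1 fell. With the cell scores as covariates 0 of the 25 were called.

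Cytokine receptors rose at 6 of 26 genes (23.1%, against 5.14% of all genes) and fell at 0. CSF2RA, a receptor chain of granulocyte-macrophage colony-stimulating factor, rose by 0.74 ± 0.12 and IL4R by 0.37 ± 0.06 (adjusted p = 0.000104 for both), while the other probe set of IL4R was at 0.17 (adjusted p = 0.0854). IL13RA1 rose by 0.38 ± 0.08, IL6ST by 0.47 ± 0.12, IL20RA by 0.41 ± 0.10 and IL17RA by 0.34 ± 0.09. Without the dimmest 40% of probe sets 9 of the 26 receptor genes remained, of which 4 rose. Among 18 feedback regulators 5 rose (27.8%) and 1 fell (5.56%, against 2.39% of all genes). SOCS1, an inhibitor of Janus kinases that interferon induces, lay at 6.88, 7.19 and 7.73 in CTL and at 7.82, 8.38 and 9.57 in CpG chicks at D3. At D6 it lay at 6.68, 6.84 and 8.01 in CTL and at 7.55, 7.78 and 10.23 in CpG chicks. The groups did not overlap at D3, whereas at D6 1 control stood among the CpG chicks and 3 of 10 CpG chicks lay above it, and SOCS1 rose by 1.14 ± 0.17 (adjusted p = 3.57e-05). PTPN6, the phosphatase SHP-1, rose by 0.69 ± 0.14, and SOCS3, an inhibitor of IL-6 signalling, by 0.34 ± 0.10 (adjusted p = 0.0294, and 0.0508 without CpG chick 28). DUSP10 rose by 0.28 ± 0.07 and PIAS1 by 0.13 ± 0.04, and CISH, a target of STAT5, fell by 0.33 ± 0.09. With the cell scores as covariates 0 of the 26 receptor genes and 0 of the 18 feedback regulators were called.

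Of 25 chemokine and chemokine receptor genes 2 rose and 0 fell, and their 8% is near the 7.53% of all genes called. ACKR4, a receptor that removes chemokines, rose by 1.39 ± 0.29 (adjusted p = 0.00195), from 4.50, 6.47 and 7.65 in CTL to 5.97, 7.20 and 9.29 in CpG chicks at D3 and from 4.91, 5.53 and 6.92 to 5.75, 7.38 and 8.94 at D6. Its groups overlapped on both days, with 3 of 8 and 6 of 10 CpG chicks above all controls. XCL1, or lymphotactin, rose by 0.32 ± 0.10, and 25 of the 38 arrays ended its call when left out (adjusted p up to 0.0777).

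Granule proteins of heterophils rose at most of their genes. Of 13 measured, 8 rose (61.5%, against 5.14% of all genes) and 0 fell. The median was 0.69 for the shared term, 0.92 at D3 and 0.52 at D6. LECT2, a secreted leukocyte chemotactic factor, lay at 6.27, 7.77 and 8.28 in CTL and at 9.13, 9.90 and 10.60 in CpG chicks at D3. At D6 it lay at 6.25, 6.86 and 7.89 in CTL and at 6.66, 7.73 and 9.53 in CpG chicks. At D3 the groups were apart, and at D6 3 of 10 CpG chicks were above all controls. The shared rise of LECT2 was 1.36 ± 0.23 (adjusted p = 0.000171). Its change from D3 to D6 was -1.43 ± 0.40 (unadjusted p = 0.001), which did not pass the adjustment over all probe sets.

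Avian beta-defensins, small cationic peptides that kill microbes, made up most of the rest. AvBD7 rose by 1.58 ± 0.28 (adjusted p = 0.000324), with 8 of 8 and 4 of 10 CpG chicks above all controls and a change between days of -1.32 ± 0.53. DEFB4A, which stands for avian beta-defensin 2, rose by 1.04 ± 0.19, with a change of -1.19 ± 0.33, and neither change passed the adjustment. AvBD6 rose by 0.96 ± 0.18, AvBD1 by 0.92 ± 0.19 and AvBD4 by 0.54 ± 0.12. LYG2, a goose-type lysozyme, rose by 0.69 ± 0.20, and S100A12, a calcium-binding alarmin, by 0.72 ± 0.21, a call that 7 of the 38 arrays ended when left out (adjusted p up to 0.0592). LECT2, AvBD1, AvBD7, DEFB4A and S100A12 are themselves heterophil markers, and with the cell scores as covariates 0 of the 13 were called (median 0.11).

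Of 9 genes for the phagocyte oxidase, integrins and colony-stimulating factor receptors 4 rose (44.4%, against 5.14% of all genes) and 0 fell (median 0.41). SPI1, or PU.1, a master regulator of myeloid cells, rose by 1.02 ± 0.15 (adjusted p = 4.96e-05), and ITGB2, the beta chain of leukocyte integrins, by 0.66 ± 0.12. CSF2RA, given above, and NCF4, an oxidase subunit (0.50 ± 0.09), were the others. Among 17 monocyte and macrophage genes 8 rose (47.1%) and 0 fell (median 0.14). FGL2, a fibrinogen-like protein of macrophages and T cells, lay at 7.07, 8.02 and 8.38 in CTL and at 8.25, 8.56 and 9.39 in CpG chicks at D3, and at 6.49, 6.91 and 7.29 against 7.37, 8.31 and 9.07 at D6. The groups overlapped at D3 through 1 CpG chick and were apart at D6, and FGL2 rose by 1.13 ± 0.14 (adjusted p = 2.68e-06). TREM2, a lipid-sensing receptor, rose by 0.38 ± 0.09 and TREMB2 by 0.45 ± 0.13. MARCO, a scavenger receptor of macrophages, was at -0.10 (adjusted p = 0.397). LY86, SPI1, TLR4 and TREM2 are monocyte markers and ITGB2 and NCF4 heterophil markers, so they form part of the scores given above. With the cell scores as covariates 0 of the 9 and 1 of the 17 were called. The median of the 9 genes was 0.19 at D3 and 0.60 at D6, and that of the 17 was 0.09 and 0.24. As list means relative to the same-day control mean, the 9 genes put 1 of 8 CpG chicks above all controls at D3 and 9 of 10 at D6. For the 17 genes 2 of 8 and 9 of 10 lay there. The change of these lists between days was not tested.

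Lipid mediator and annexin genes rose at 10 of 24 genes (41.7%, against 5.14% of all genes) and fell at 0, with a median of 0.10. ANXA2, a membrane-binding annexin, lay at 6.82, 7.69 and 8.88 in CTL and at 8.23, 8.71 and 10.76 in CpG chicks at D3, and at 6.39, 6.93 and 7.58 against 7.38, 8.88 and 10.11 at D6. The overlap was wide at D3, where 3 of 8 CpG chicks were above all controls, and narrow at D6, where 9 of 10 were. ANXA2 rose by 1.54 ± 0.22 (adjusted p = 3.45e-05), or 2.91-fold. ANXA1, an annexin that limits inflammation, rose by 1.09 ± 0.21, ANXA5 by 0.96 ± 0.16 and ANXA7 by 0.39 ± 0.09. On the leukotriene path, PLA2G4A, which frees arachidonic acid, rose by 0.49 ± 0.10, ALOX5AP, which presents it to 5-lipoxygenase, by 0.86 ± 0.13, and LTA4H, which forms leukotriene B4, by 0.44 ± 0.08. MGST1, a microsomal glutathione transferase, rose by 1.06 ± 0.18, TBXAS1, thromboxane synthase, by 0.48 ± 0.09, and CYSLTR1, a leukotriene receptor, by 0.22 ± 0.06. TBXAS1 is also a thrombocyte marker, and with the cell scores as covariates 0 of the 24 were called (median 0.06).

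Thrombocyte genes rose at 6 of 15 (40%, against 5.14% of all genes) and fell at 0 (median 0.20). F13A1, the factor XIII A chain, rose by 0.65 ± 0.13, GP9, a platelet glycoprotein, by 0.58 ± 0.11, PLEK, pleckstrin, by 0.36 ± 0.08, SELP, P-selectin, by 0.34 ± 0.10, and P2RY12, the ADP receptor, by 0.29 ± 0.07. TUBB1, a beta tubulin that was set as a thrombocyte marker but may not be particular to that type, was at -0.24 (adjusted p = 0.292). Of 23 complement and coagulation genes F13A1 and TFPI (0.46 ± 0.13, a call that ended without CpG chick 14 or CTL chick 85, with adjusted p up to 0.0542) rose and 0 fell. That list was called at 8.7%, near the 7.53% of all genes, with a median of -0.02. TBXAS1, GP9, F13A1 and SELP are thrombocyte markers, the thrombocyte score was -0.055 against 0.320 at D3 and -0.452 against 0.331 at D6, and with the cell scores as covariates 0 of the 15 were called (median 0.08).

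Secreted inflammation proteins were called at 3 of 14 genes, 2 higher (14.3%) and 1 lower (7.14%). Of all genes 5.14% rose and 2.39% fell. Only 3 of the 14 lay above 0, and the list median was -0.06. AVD, avidin, the biotin-binding protein of egg white and of inflamed avian tissue, lay at 7.36, 8.06 and 9.42 in CTL and at 7.65, 9.65 and 11.88 in CpG chicks at D3, and at 7.20, 7.75 and 8.90 against 8.42, 9.41 and 12.13 at D6. The groups overlapped on both days, and AVD rose by 1.71 ± 0.29 (adjusted p = 0.000232), or 3.27-fold. Its relative AVR2, not on the list, rose by 0.88 ± 0.26 (adjusted p = 0.0338), a call that 7 of the 38 arrays ended when left out (adjusted p up to 0.0597), and avidin genes are so alike that their probes may not tell them apart. LBP is described above. FGB, a fibrinogen chain, fell by 0.20 ± 0.06, at values between 4.08 and 5.16, and 26 of the 38 arrays ended its call (adjusted p = 0.0498, up to 0.0822). With the cell scores as covariates 0 of the 14 were called.

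Enzymes that handle arginine and itaconate were called at 6 of 21 genes (28.6%, against 7.53% of all genes). ACOD1, which makes the antimicrobial metabolite itaconate, rose by 1.14 ± 0.19 (adjusted p = 0.000216), with 3 of 8 and 10 of 10 CpG chicks above all controls. ASS1 and ASL, which rebuild arginine from citrulline, rose by 0.79 ± 0.14 and 0.36 ± 0.09, and GCH1, which makes the cofactor of nitric oxide synthase, by 0.59 ± 0.12, although NOS2 itself did not pass. SLC7A3, an arginine transporter, fell by 0.40 ± 0.10, and ODC, which starts polyamine synthesis, fell by 0.41 ± 0.12 (adjusted p = 0.0531 without CpG chick 14). With the cell scores as covariates 0 of the 21 were called.

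Of 22 glycolysis genes 7 rose (31.8%, against 5.14% of all genes) and 0 fell (median 0.13). LDHA, lactate dehydrogenase A, lay at 9.99, 10.32 and 10.48 in CTL and at 10.51, 10.67 and 11.25 in CpG chicks at D3, and at 9.41, 9.91 and 10.45 against 10.13, 10.49 and 10.97 at D6. The groups were apart at D3 and overlapped at D6, where 5 of 10 CpG chicks were above all controls, and LDHA rose by 0.52 ± 0.08 (adjusted p = 4.96e-05). HK1, which traps glucose, rose by 0.37 ± 0.07 (its other probe set was at 0.21, adjusted p = 0.137), PFKP, the committed step, by 0.32 ± 0.06, and PFKFB4, which makes the activator of that step, by 0.36 ± 0.09. ENO1 (0.38 ± 0.12), GAPDH (0.33 ± 0.10) and PGK2 (0.25 ± 0.07) also rose, and 21 arrays ended the call of ENO1 (adjusted p up to 0.0785) and 8 that of GAPDH (up to 0.0592). Of 32 genes of oxidative phosphorylation limma called 0 (6 at an unadjusted p under 0.05), with a median of -0.04. Over all 20804 probe sets the shared term had 4331 at an unadjusted p under 0.05 (limma), a larger share than 6 of 32. With the cell scores as covariates 0 glycolysis genes were called (median -0.03).

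Mitosis genes were the main group of falls. Of 42 measured, 24 fell (57.1%, against 2.39% of all genes), 0 rose and 18 did not pass, and the median was -0.45. It was -0.40 at D3, -0.44 at D6 and 0.06 at 3 h. CKAP2, a spindle microtubule protein, lay at 7.05, 7.96 and 8.69 in CTL and at 6.40, 7.00 and 7.79 in CpG chicks at D3, and at 6.61, 7.10 and 8.30 against 5.89, 6.43 and 6.79 at D6. The groups overlapped on both days, with 5 of 8 and 7 of 10 CpG chicks below all controls, and CKAP2 fell by 0.80 ± 0.15 (adjusted p = 0.000808).

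The genes that fell had different roles in division. Of chromosome structure, TOP2A, the topoisomerase that untangles DNA, fell by 0.72 ± 0.21 (a call that 6 of the 38 arrays ended when left out, with adjusted p up to 0.0555), and the condensin subunits SMC2, NCAPH and NCAPD2 by 0.75 ± 0.21, 0.44 ± 0.12 and 0.37 ± 0.10. Of entry and spindle building, CDK1, the mitotic kinase, fell by 0.68 ± 0.21, PLK1 by 0.51 ± 0.14, AURKB by 0.51 ± 0.15, TPX2, a spindle factor, by 0.70 ± 0.13 (adjusted p = 0.000834), and the motor KIF11 by 0.69 ± 0.20. The call of CDK1 ended without any of 19 arrays (adjusted p up to 0.0715) and that of AURKB without any of 6 (up to 0.0576). Of the checkpoint, BUB1 fell by 0.53 ± 0.16, a call that 6 arrays ended (adjusted p up to 0.0567), and BUB1B by 0.61 ± 0.16, while TTK, BUB3 and MAD2L1 did not pass. The anaphase genes CDC20 (-0.06, adjusted p = 0.789) and ESPL1 (0.13, adjusted p = 0.453) and the kinetochore genes NDC80 and NUF2 did not pass either. Of the midzone and cytokinesis, PRC1 fell by 0.31 ± 0.06, KIF23 by 0.45 ± 0.12 and ECT2 by 0.45 ± 0.12.

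NUSAP1, which bundles spindle microtubules, had the largest fall of the list, by 0.91 ± 0.20 (adjusted p = 0.00297), and was called at neither day alone. NEK2, a centrosomal kinase not on the list, fell by 0.81 ± 0.18 and was likewise called at neither day. CENPF, a kinetochore protein, fell by 0.73 ± 0.18 on its brighter probe set, while its other probe set was at 0.11 (adjusted p = 0.405), so that the probe sets disagreed. MKI67, the proliferation antigen Ki-67, did not pass at -0.32 ± 0.27. The 3 members above 0 were ESPL1, BUB3 and MAD2L1, none of which passed (adjusted p between 0.453 and 0.941).

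As a list mean relative to the same-day control mean, mitosis genes lay between -0.83 and 0.13 (median -0.48) in CpG chicks at D3, against -0.40 to 0.59 in controls, and between -0.63 and -0.13 (median -0.46) at D6, against -0.48 to 0.90. On this scale 4 of 8 and 5 of 10 CpG chicks lay below every control. With any 1 array left out 19 to 28 members fell, the fewest without CpG chick 14. Without the 4 arrays that stood apart 30 fell, and with the cell scores as covariates 1 fell (median -0.41). Genes of DNA replication were called at 5.88%, near the 7.53% of all genes, but only 9 of 51 lay above 0. As list means they lay between -0.23 and 0.17 in CpG chicks at D3, against -0.18 to 0.31 in controls. At D6 they lay between -0.20 and -0.06, against -0.16 to 0.23. Of 51, CDC45, a helicase subunit (-0.41 ± 0.12), and GMNN, an inhibitor of licensing (-0.25 ± 0.07), fell and RPA3 rose (0.33 ± 0.10), with a median of -0.10. Leaving out CpG chick 14 or CTL chick 91 ended the call of CDC45 (adjusted p up to 0.0584), and leaving out CpG chick 32 or CTL chick 85 that of RPA3 (up to 0.0518). Without the 4 arrays that stood apart 8 replication genes fell and 2 rose.

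**Figure D4:**
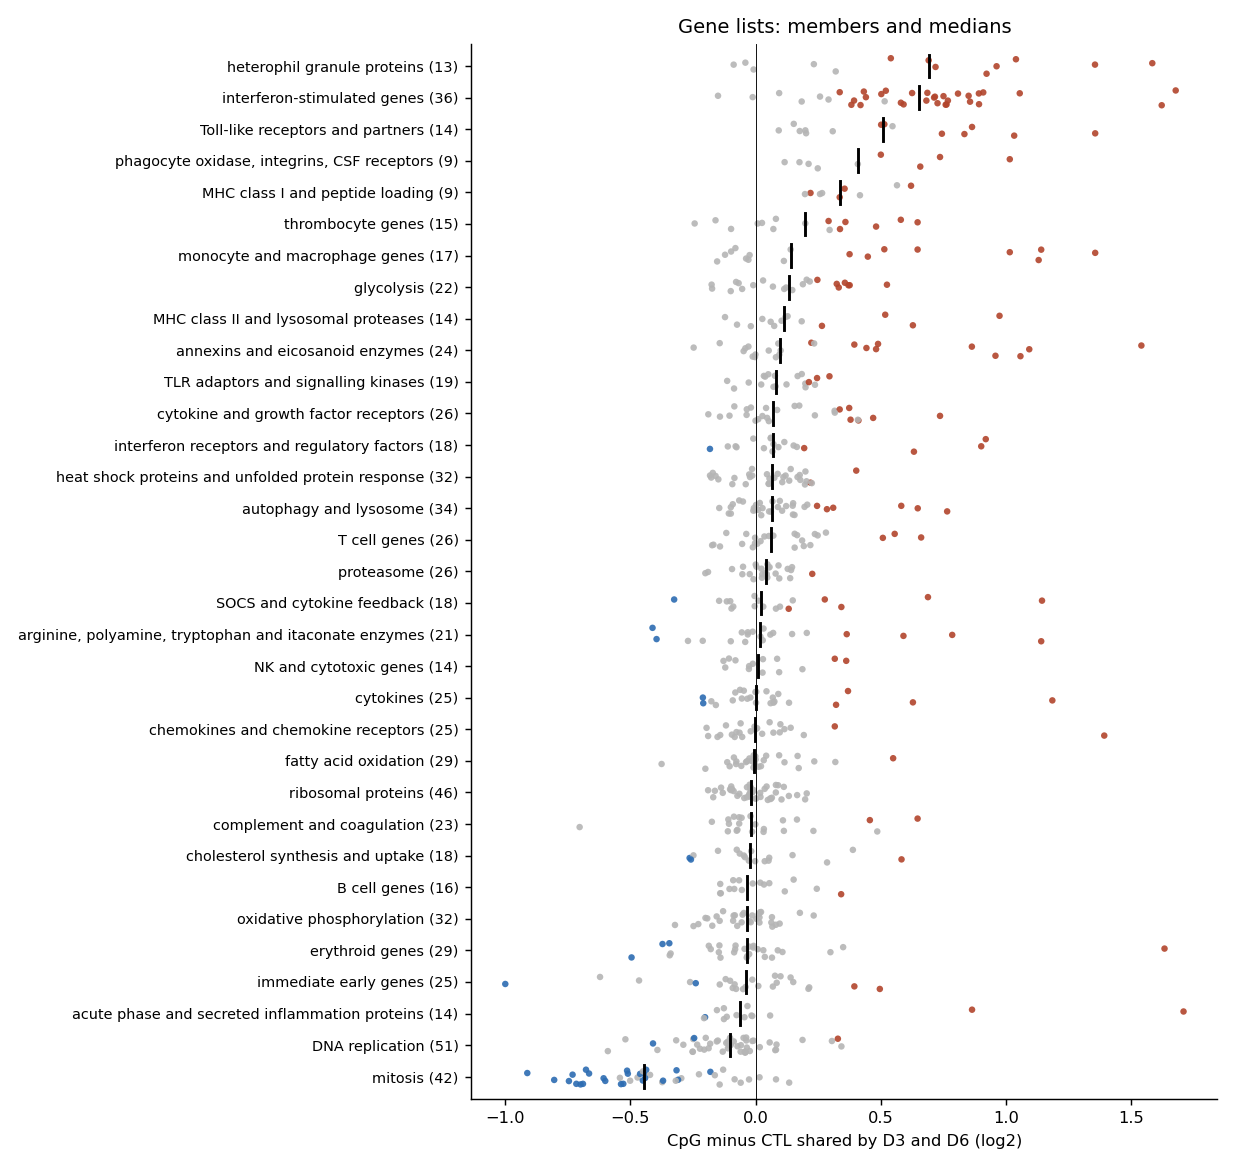
Each point is 1 gene of the list named on the left (genes measured in brackets), placed by the CpG minus CTL difference shared by D3 and D6 (log2); red and blue points were called higher and lower, grey points were not called, and black bars are list medians. Medians run from -0.45 (mitosis) to 0.69 (heterophil granule proteins).

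Red cell genes showed 1 rise (3.45%) and 3 falls (10.3%) among 29, with a median of -0.04. Of all genes 5.14% rose and 2.39% fell. XK, a membrane protein of the Kell blood group complex in humans, lay at 5.81, 6.56 and 7.49 in CTL and at 6.59, 8.01 and 9.32 in CpG chicks at D3, and at 5.83, 5.97 and 6.71 against 5.82, 7.72 and 9.82 at D6. The lowest CpG chick at D6 was level with the lowest controls while 9 of 10 were above all of them, and XK rose by 1.63 ± 0.26 (adjusted p = 9.1e-05), or 3.10-fold. The heme synthesis enzymes CPOX, UROD and FECH fell by 0.34 ± 0.09, 0.37 ± 0.10 and 0.50 ± 0.14, and the call of FECH ended without CpG chick 14 (adjusted p = 0.0540). HBA1, an adult alpha globin, was at -0.03 ± 0.03 with levels between 14.00 and 14.30 in all 38 chicks, the top of the scale, where arrays may not resolve differences. The erythrocyte score was -0.172 in CTL and -0.383 in CpG chicks at D3 and 0.561 and -0.230 at D6, with the lowest value, -2.570, in CpG chick 31, and its part in these falls was not tested.

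BPGM, bisphosphoglycerate mutase, was chosen after its values were seen, as a gene with opposite signs on the 2 days. It was at 0.31 ± 0.19 at D3 and -0.81 ± 0.16 at D6, which the shared term averaged to -0.34 ± 0.15 (adjusted p = 0.177). Its change between days, -1.12 ± 0.25 (unadjusted p = 5.23e-05), did not pass the adjustment over all probe sets (adjusted p = 0.895).

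Of T cell genes 11.5% were called, of B cell genes 6.25% and of cytotoxic cell genes 14.3%, against 7.53% of all genes. Of 26 T cell genes 3 rose and 0 fell: CD44, an adhesion receptor (0.66 ± 0.13), CD7 (0.56 ± 0.14) and the kinase FYN (0.51 ± 0.11), all also found on other leukocytes. CD3D, a chain of the T cell receptor complex, was at 0.22 ± 0.09 and did not pass. Without the 4 arrays that stood apart 11 of the 26 rose. Of 16 B cell genes the kinase SYK rose (0.34 ± 0.09), 0 fell, and CD79B, of the B cell receptor, was at -0.14 ± 0.06 (adjusted p = 0.19). Of 14 genes of natural killer and cytotoxic cells CST7 (0.36 ± 0.11, a call that 20 of the 38 arrays ended, with adjusted p up to 0.0782) and XCL1 rose and 0 fell.

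Lists of protein and lipid turnover were called at between 0% and 17.6% of their genes, against 7.53% of all genes. Of 34 genes of autophagy and lysosomes 6 rose and 0 fell, among them LIPA, the lysosomal acid lipase (0.77 ± 0.16), LAPTM5, a lysosomal protein of blood cells (0.58 ± 0.11), and ATP6V0D2, a proton pump subunit (0.65 ± 0.15). With the cell scores as covariates 0 of the 34 were called. Of 32 heat shock and unfolded protein response genes 2 rose, EDEM1 (0.40 ± 0.08) and PDIA3. The days differed here, with a list median of 0.23 at D3 and -0.005 at D6. As list means 6 of 8 CpG chicks lay above all controls at D3. At D6 3 of 10 lay above all controls and 5 of 10 below. This change was not tested. Of 26 proteasome genes PSMA7 rose (0.23 ± 0.07), a call that 21 of the 38 arrays ended (adjusted p up to 0.0749). Of 46 ribosomal protein genes limma called 0 (6 at an unadjusted p under 0.05). Those 6 are a smaller share than the 4331 of all 20804 probe sets under that unadjusted p. ABCG1, which exports cholesterol, rose by 0.58 ± 0.11, while SREBF1, a regulator of lipid synthesis, and LSS, lanosterol synthase, both fell by 0.26 (SE 0.06 and 0.07), among 18 cholesterol genes. ACSL5, which activates fatty acids, rose by 0.55 ± 0.10 and was the 1 called among 29 genes of fatty acid oxidation. Of 25 immediate early genes KLF6 (0.50 ± 0.10) and FOSL2 (0.39 ± 0.12, a call that 9 arrays ended, with adjusted p up to 0.0571) rose, and GEM (-0.24 ± 0.06) and SIK1 fell.

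The falls of at least 2-fold were those of SMOC1 and SIK1. SMOC1, a secreted matrix protein that binds calcium, lay at 9.30, 10.44 and 10.98 in CTL and at 6.45, 9.31 and 9.90 in CpG chicks at D3, and at 10.01, 10.59 and 11.34 against 7.47, 9.78 and 10.40 at D6. The groups overlapped on both days and CpG chicks had long lower tails. SMOC1 fell by 1.23 ± 0.24 (adjusted p = 0.000926), although neither day alone was called (adjusted p = 0.0753 and 0.0569). SIK1, a salt-inducible kinase, fell by 1.00 ± 0.28 (adjusted p = 0.0257), with -0.41 at D3 and -1.43 at D6. Other falls were those of PLS1, an actin-bundling plastin (by 0.89 ± 0.25), ABCG2, a transporter of urate and heme (by 0.86 ± 0.23), and ACSS1A, an acetyl-CoA synthetase (by 0.77 ± 0.24), whose call 23 of the 38 arrays ended (adjusted p up to 0.0729).

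The smallest p-values belonged in part to genes outside the lists, which are named here after their values were seen. LY75, the endocytic receptor DEC-205, had the smallest of all (adjusted p = 7.63e-08) and rose by 0.64 ± 0.07. It lay at 9.25, 9.57 and 9.90 in CTL and at 9.77, 10.16 and 10.40 in CpG chicks at D3, and at 9.59, 9.88 and 10.19 against 10.28, 10.62 and 10.79 at D6, so that 7 of 8 and 10 of 10 CpG chicks were above all controls. FNDC3A rose by 0.47 ± 0.05 and AOAH, which inactivates lipopolysaccharide, by 0.53 ± 0.08.

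CAPZA2, which caps the ends of actin filaments, was the 1 probe set of 20804 with CpG chicks above all controls on both days (0.00481%), and 0 lay below on both. Single days had 24 such probe sets above (0.115%) and 11 below (0.0529%) at D3, and 29 above (0.139%) and 1 below (0.00481%) at D6. CAPZA2 lay at 8.60, 8.76 and 9.10 in CTL and at 9.13, 9.32 and 9.58 in CpG chicks at D3, and at 8.61, 8.87 and 9.00 against 9.02, 9.12 and 9.36 at D6. The gap between the groups was narrow, and the rise was 0.38 ± 0.05 (adjusted p = 9.62e-06). Actin assembly genes were then listed because CAPZA2, GMFB and ACTR2 had been seen among the smallest p-values. Of 39 measured, 13 rose (33.3%) and 1 fell (2.56%), a count that holds the genes that prompted it. Of all genes 5.14% rose and 2.39% fell. GMFB, which remodels branched filaments, rose by 0.59 ± 0.08, and ACTR2, of the Arp2/3 complex that forms them, by 0.49 ± 0.07. Of its other subunits, ARPC5 (0.53 ± 0.09), ARPC1B (0.33 ± 0.08) and ARPC3 (0.26 ± 0.06) rose, while ARPC1A (0.08), ARPC2 (0.10), ARPC4 (0.09) and ARPC5L (-0.01) did not pass. LCP1, the leukocyte plastin, rose by 0.78 ± 0.11, while PLS1 fell.

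The late effect was set against that at 3 h, in different chicks, with all 58 arrays in 1 fit. At 3 h 0 probe sets were called (0%, limma, smallest adjusted p = 0.168, 1037 at an unadjusted p under 0.05). The mean of the D3 and D6 effects differed from the 3 h effect at 93 probe sets (0.447%), being higher at 83 (0.399%) and lower at 10 (0.0481%). FGL2 differed by 2.01, from -0.93 at 3 h, and FN1, fibronectin, by 1.66, from -0.83 at 3 h to 0.46 at D3 and 1.19 at D6. XK differed by 1.56, LY86 by 1.59, ANXA2 by 1.47, IL15 by 1.46, LBP by 1.32, PTPN6 by 1.21 and TLR7 by 1.18.

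JAKMIP1, a microtubule-associated binding partner of Janus kinases, differed the other way, by -2.32, with 2.13 at 3 h and -0.17 ± 0.26 for the shared term (adjusted p = 0.758). PRR11, a cell cycle gene, differed by -0.72, YBX1, an RNA-binding protein, by -0.71, SIAH2, a ubiquitin ligase, by -0.55, and PRC1 by -0.48. PRR11, YBX1 and SIAH2 fell by 0.55 ± 0.11, 0.35 ± 0.09 and 0.34 ± 0.09 in the shared term and were at 0.18, 0.37 and 0.23 at 3 h. The median of the interferon-stimulated list was -0.17 at 3 h and that of the Toll-like receptor list -0.28, against 0.65 and 0.51 in the shared term. The difference between times was tested only gene by gene. Among the named genes that contrast called LY86, LBP and TLR7 of the Toll-like receptor list, but no member of the interferon-stimulated list. DTX3L, with the smallest p of that list in the shared term, differed by 0.82 ± 0.32 (limma, adjusted p = 0.325).

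**Figure D5:**
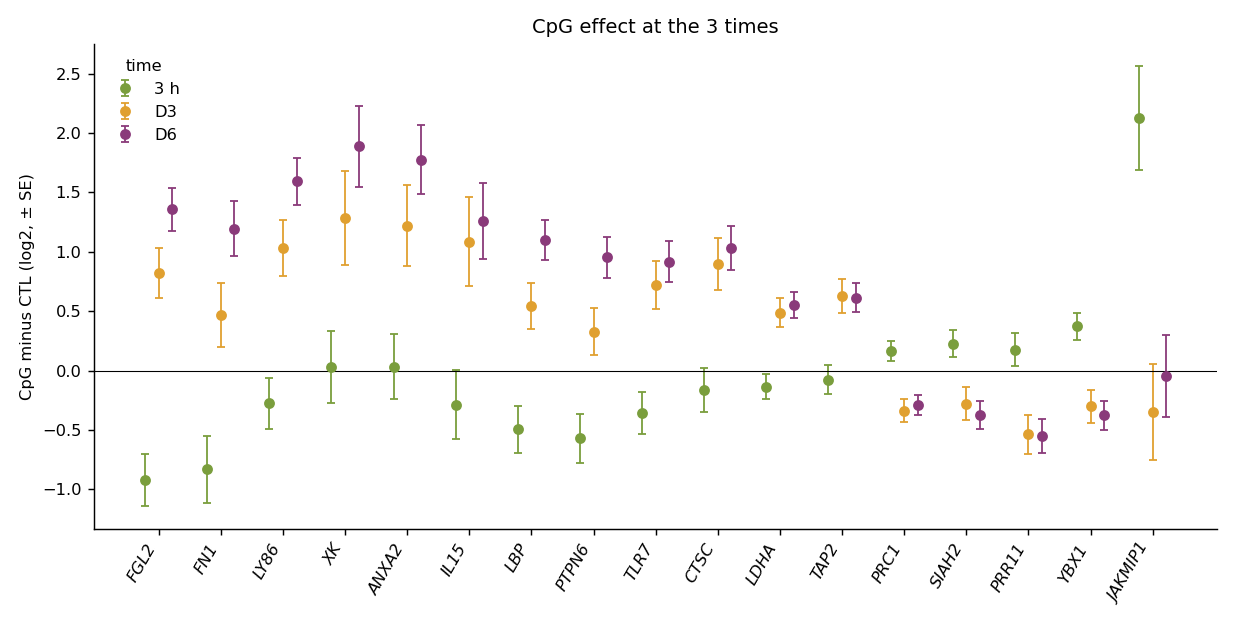
Points are CpG minus CTL differences (log2, whiskers are SE) at 3 h, D3 and D6 for 17 named genes whose late effect differed from that at 3 h; those at 3 h come from the fit of 58 arrays and those at D3 and D6 from the fit of 38 arrays. From FGL2 to TAP2 the late values lie above the 3 h value, and from PRC1 to JAKMIP1 the order is reversed.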

How the data were processed

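Whole blood was kept in PAXgene tubes, and RNA went through a DNase step and WT PLUS labelling before hybridisation to an Affymetrix gene array, per the labels' protocols. The table holds log2 expression values that the authors made with RMA before they deposited them, per the submitters' processing notes. RMA subtracts a modelled background, gives all arrays 1 distribution and combines the probes of a set. No version is named in those notes, and nothing further was done to the values. They ran from 1.12 to 14.7, with array medians between 6.64 and 6.76, and signal over background is not known. The number of arrays limits the precision. Replicates are separate chicks, per the chick numbers in the labels.

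Models were fitted with limma 3.58.1 in R 4.3.3 (lmFit, eBayes, all 20804 probe sets, no filter, two-sided tests, Benjamini-Hochberg, threshold 0.05). The shared term came from 38 arrays with day and treatment as terms (35 residual and 4.03 prior degrees of freedom). Within-day values and the change between days came from 1 mean per group over the same arrays, and the contrast with 3 h from all 58 arrays. The steps were tested on simulated data.

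The platform table gave 1 gene symbol for 12300 probe sets, several for 256 and none for 8248, and a probe set with several was left unnamed. Symbols of 11727 were checked by Entrez identifier against the gene table of assembly GRCg7b. For the 651 genes with several probe sets, that with the highest mean stood for the gene. Some fixed genes without a probe set of their own symbol (IL10, IFNA3, TLR21, MYD88, CATHL2, CSF1R and HBBA) are not analysed here.

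The groups, the 33 gene lists and the genes named were chosen with earlier results of these data known, so lists are described by counts and medians and not tested. Genes named are the 10 largest rises and falls called, the 5 largest each way called at neither day alone, the 3 with the smallest p of each list, the largest 5 each way called for a difference from 3 h, and a set of fixed immune genes. The rule gave 113 genes, of which 101 were called. Other genes of a list are named as its called members. Some further list members and cell markers that did not pass are named too, and these were picked by no rule. Genes outside the rule and the lists are named as chosen after their values were seen. Cell scores are means over a type's markers of values z-scored over the 38 arrays. The alternatives are given in the closing section.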

Additional observations from a re-analysis of the deposited data

Results flagged for a closer look

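Dixon's test was run on 339 sets of values, those of 113 named genes in the 3 groups of up to 10 chicks. In 38 of them 1 chick lay far from the others of its group, and chance gives about 1 in 20. All genes of 1 chick share an array, so the sets are not independent and the count is no test against chance. CpG chick 31 at D6 stood apart in 15 genes, given here with its log2 value and that of the nearest chick: ACSL5 (7.79, next 6.97), B2M (11.995, next 12.50), CD3D (7.06, next 7.61), CDC45 (5.53, next 6.37), CPOX (9.69, next 10.22), GCH1 (9.39, next 8.08), HBA1 (14.00, next 14.23), IL6 (5.66, next 5.26), LY96 (9.72, next 7.95), NOS2 (7.99, next 8.73), RSAD2 (12.26, next 11.27), SMOC1 (7.47, next 8.96), SOCS1 (10.23, next 8.42), TFPI (8.65, next 7.68) and UROD (9.96, next 10.65). CpG chick 20 at D3 stood apart in 10 genes: ALOX5AP (9.51, next 8.79), ATP6V0D2 (7.10, next 5.75), CD44 (9.09, next 7.95), CTSS (9.43, next 8.49), F13A1 (12.58, next 11.62), MAP3K8 (5.77, next 5.16), PSMA7 (9.35, next 9.83), PTPN6 (9.73, next 8.65), TAP2 (9.51, next 8.80) and TLR7 (7.94, next 7.27). The remaining 13 cases were spread over other chicks. Among controls at D3 they were ACSL5 in chick 91 (7.01, next 6.50), CD3D in chick 86 (8.45, next 7.68), EDEM1 in chick 85 (9.27, next 9.53), JAKMIP1 in chick 92 (6.85, next 8.26), LECT2 in chick 90 (6.27, next 7.37) and PSMA7 in chick 92 (8.92, next 9.43). Among CpG chicks at D3 they were CST7 in chick 18 (7.67, next 8.26), GBP4L in chick 17 (10.56, next 11.81), HBA1 in chick 14 (14.14, next 14.22), LSS in chick 14 (6.00, next 6.46) and XCL1 in chick 13 (5.23, next 6.08). Among CpG chicks at D6 they were CD79B in chick 32 (6.68, next 7.19) and CENPF in chick 26 (6.80, next 6.20). Leaving out the chick that stood apart ended the call of PSMA7 (CTL chick 92) and of no other called gene among these.

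The mean CpG effect at D3 and D6 differed from that at 3 h in 24 of the named genes, by the contrast over all 58 arrays. Some of these genes were named because this contrast called them and others for their late effects, so the selection partly fixes the count. Over all 20804 probe sets the contrast called 93 (0.447%). On the log2 scale the late effect was higher by 0.93 (ALOX5AP), 1.47 (ANXA2), 1.02 (ANXA5), 1.13 (CTSC), 0.71 (CTSS), 2.01 (FGL2), 1.66 (FN1), 1.46 (IL15), 0.78 (IL18), 0.97 (ITGB2), 1.01 (LAPTM5), 1.32 (LBP), 0.66 (LDHA), 1.59 (LY86), 1.21 (PTPN6), 0.70 (TAP2), 1.18 (TLR7) and 1.56 (XK). It was lower in 6 genes, with differences of -0.42 (GEM), -2.32 (JAKMIP1), -0.48 (PRC1), -0.72 (PRR11), -0.55 (SIAH2) and -0.71 (YBX1). JAKMIP1 is the 1 of these genes that the shared term did not call.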

How the results depend on the processing

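The shared term called 1352 probe sets, 807 higher and 545 lower. Leaving out 1 array at a time gave 1093 to 1738 (707 to 977 higher and 371 to 761 lower), with the fewest without CpG chick 14 and the most without CpG chick 31. With the 6 cell scores as covariates the counts were 75, 63 and 12, and of the 101 called genes named 10 kept their call, 81 lost it and 10 changed sign: CD44 (-0.0263), CTSS (-0.0169), FYN (-0.0271), ITGB2 (-0.1054), KLF6 (-0.0507), LAPTM5 (-0.0864), PTPN6 (-0.1503), SOCS3 (-0.0202), TLR1B (-0.4386) and TLR4 (-0.0971). ITGB2 and TLR4 are among the markers adjusted for; otherwise the cause was not tested. Without the 4 arrays that stood apart 2102 were called, 1198 higher and 904 lower, and with array weights 2005, of which 873 lower; the cause was not tested. With 1 probe set per gene and unnamed probe sets left out, 978 were called, of which 328 lower, over fewer tests. With fewer samples, the D3 arrays alone gave 9, 9 and 0 and the D6 arrays alone 589, 435 and 154. Median centring gave 1341 calls, 69.6% of them higher against 59.7% as deposited, and moved the median of all probe sets from -0.0216 to -0.0028. The fits with equal day weights, all 58 arrays, a trended and robust prior, no dim probe sets, repeated quantile normalization, no duplicate rows or the W-linked mean gave 1264 to 1401 calls. Of the interferon-stimulated genes 14 were called with all 58 arrays, against 29. The change from D3 to D6 had 0 calls under 6 alternatives as well. The contrast with 3 h went from 93 calls (83 and 10) to 242 (200 and 42) with array weights and to 159 (129 and 30) without the arrays that stood apart. No paired analysis was possible because the groups share no chick numbers. The planned description of promoter motifs was not run, since no promoter sequences were used here. How far low probe sets lie above background is unknown and limits what can be said of genes below 6.262, the level under which 40% of probe set means fall.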
